A study of Mus musculus with 6 samples.

Results

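The genes of the Serpin family (serine or cysteine protease inhibitors named by clade letter A to I) were followed in the olfactory bulbs (OBs) of aged Tg2576 and WT mice. Members were all genes whose symbol on the array starts with Serpin, a clade letter and a number. They came to 55 genes with 1 probe set each, out of 19505 genes with a symbol on the array. The whole table held 22206 probe sets that were tested, and 19572 of them had 1 symbol. Clade B held 26 of them, clade A 20, clades F and I 2 each, and clades C, D, E, G and H 1 each. Among other mouse Serpin genes, Serpina3c, Serpina3g, Serpina3k, Serpina3m, Serpinb3b and Serpinb9h had no probe set named in the platform table and were not analysed here, and Serpine2 is taken up apart from the members.

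RNA of the OB was measured in 3 Tg2576 mice and 3 WT littermates, all female and 18 months of age, each mouse giving 1 Clarion S array (Affymetrix). Tg2576 mice carry a transgene that drives the Swedish mutant form of the human amyloid precursor protein (hAPPSw) from the hamster prion promoter, and they are a model of Alzheimer's disease (AD) with β-amyloid plaques at this age. WT mice lack the transgene. The comparison asks which transcripts differ in the OB of aged Tg2576 mice, and how precise any value can be is limited by the small number of arrays. Every value is on the log2 scale of the deposited table unless a fold is named.

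Inhibitory serpins are folded with a stretched loop that a protease takes for a substrate. Cleavage of the loop snaps the serpin into another shape and traps the protease, so that each molecule is used once. Members of the secreted clades control clotting, fibrinolysis, complement and inflammation, whereas clade B serpins mostly stay inside cells, where they guard against granzymes, cathepsins and leaked neutrophil proteases. Some members inhibit nothing and act as hormone carriers or, as Serpinh1, as a chaperone. In the brain neuroserpin (Serpini1) is made by neurons, and Serpina3n is widely used as a mark of reactive astrocytes.

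A gene is said to have risen or fallen here if its unadjusted p was under 0.01 and its fold over 1.3 or under 0.7. At these thresholds 2 of 55 Serpin genes rose in Tg2576 OBs, Serpinh1 and Serpinb9, and 0 fell. Over all probe sets 0.797% passed, 0.698% as higher and 0.0991% as lower. At an unadjusted p under 0.05 alone 3 members were higher, where the share of all probe sets was 4.57%, and 8 were lower, where it was 3.97%. The 8 became 5 after a further quantile or loess normalization, and 4 without Tg2576 replicate 2 or without WT replicate 2. None of the 55 members had an adjusted p (Benjamini-Hochberg over all 22206 probe sets) under 0.05, nor had any other probe set, and the smallest adjusted p of the table was 0.332. The arrays of the genotypes did not overlap for 4 members that were higher in Tg2576 OBs (7.03% of all probe sets) and for 7 that were lower (7.03%).

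The 300 bases around the annotated start are shown for Serpinh1 and Serpinb9, the genes that rose, and for Serpinb10, the member with the smallest p among those with lower values. They were taken from RefSeq (GRCm38.p6), read 5′ to 3′ on the strand of the gene, with 250 bases before the start and 50 after it. Serpinh1 lies at chr7:99353190-99353489 on the minus strand, Serpinb9 at chr13:33004291-33004590 on the plus strand and Serpinb10 at chr1:107528753-107529052 on the plus strand. Capitals mark matches, on either strand, to the core of an interferon response element (GAAANNGAA), a loose AP-1 pattern (TGANTCA, with any base at its centre) and a GC box (GGGCGG).
Serpinh1: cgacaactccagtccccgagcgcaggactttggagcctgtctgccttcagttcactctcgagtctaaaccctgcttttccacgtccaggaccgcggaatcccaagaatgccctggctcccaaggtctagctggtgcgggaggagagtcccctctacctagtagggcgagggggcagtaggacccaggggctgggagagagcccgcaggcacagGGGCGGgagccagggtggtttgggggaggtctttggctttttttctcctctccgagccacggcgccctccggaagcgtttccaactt
Serpinb9: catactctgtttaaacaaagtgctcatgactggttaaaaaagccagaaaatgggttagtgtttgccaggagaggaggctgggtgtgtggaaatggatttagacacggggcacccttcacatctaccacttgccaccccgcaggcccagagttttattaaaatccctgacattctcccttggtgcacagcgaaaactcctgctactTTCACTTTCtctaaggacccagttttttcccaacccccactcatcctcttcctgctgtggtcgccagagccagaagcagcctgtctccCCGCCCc
Serpinb10: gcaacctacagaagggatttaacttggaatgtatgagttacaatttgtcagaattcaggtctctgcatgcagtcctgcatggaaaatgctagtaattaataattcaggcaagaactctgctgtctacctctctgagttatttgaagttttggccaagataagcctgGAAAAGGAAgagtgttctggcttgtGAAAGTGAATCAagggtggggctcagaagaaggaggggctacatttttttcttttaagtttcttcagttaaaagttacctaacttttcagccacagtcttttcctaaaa
The Serpinh1 window held 16 CG dinucleotides and 1 GC box. The Serpinb9 window held 5 CG dinucleotides, 1 interferon core and 1 GC box. The Serpinb10 window held 0 CG dinucleotides, 2 interferon cores and 1 match to the loose AP-1 pattern (TGAATCA), the last overlapping an interferon core.

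Serpinh1, also called Hsp47, is the collagen chaperone of the endoplasmic reticulum and the only clade H member. It was at 8.08, 8.10 and 7.95 in Tg2576 replicates 1 to 3, against 7.65, 7.49 and 7.71 in WT replicates 1 to 3. All 3 Tg2576 arrays were above all 3 WT arrays. It rose by a log2 difference of 0.43 (SE 0.089), a fold of 1.34, with an adjusted p of 0.332 in limma. The difference ran from 0.36 to 0.48 when single arrays were left out, and without WT replicate 2, its lowest array, it was 0.36 and under the fold threshold.

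Serpinb9, the intracellular inhibitor of granzyme B, was at 7.08, 7.33 and 7.36 in Tg2576 OBs and at 6.52, 6.81 and 6.91 in WT OBs. The genotypes did not overlap, and replicate 1 was the lowest array of both. The median signal of the negative control probe sets averaged 6.85 over the arrays, so that 2 of the 3 WT values lay under that line and all Tg2576 values above it. Serpinb9 rose by 0.51 (SE 0.12), a fold of 1.42, with an adjusted p of 0.370 in limma. It no longer passed the p threshold without Tg2576 replicate 2, at 0.47, or without Tg2576 replicate 3, at 0.46.

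Bulk RNA cannot tell more RNA per cell from more cells of a type, and markers of several cell types were also higher in Tg2576 OBs. The endothelial markers averaged 9.08 to 9.28 in Tg2576 OBs and 8.89 to 8.99 in WT OBs, with 8 of 8 higher and Cldn5 past the thresholds. The olfactory sensory neuron markers, from cells that send axons into the bulb, averaged 9.03 to 9.35 in Tg2576 OBs and 8.73 to 8.94 in WT OBs, with 11 of 12 higher and 5 past the thresholds (Omp, Gnal, Adcy3, Stoml3 and Ebf2). Meningeal fibroblast markers averaged 8.39 to 8.70 in Tg2576 OBs and 8.20 to 8.57 in WT OBs, 8 of 10 being higher and Dcn past the thresholds. These averages overlapped between the genotypes, and the median difference of this list was 0.086. Its collagen genes Col1a1, Col1a2 and Col3a1 had differences of -0.024, 0.016 and -0.091. By mean level, 8 of 8 endothelial, 10 of 12 sensory neuron and 8 of 10 fibroblast markers were above the negative control line. Cnga2, Rtp1, Col3a1 and Lum were under it. Over all probe sets 0.698% passed the thresholds as higher, and 51.6% had a difference below 0. These lists were chosen with earlier results of these data known, and the study had already reported Gnal and Adcy3 as up-regulated. Their counts are therefore not independent support. The part of these lists in the rise of Serpinh1 and Serpinb9 was not tested.

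Serpinb10, known in humans as bomapin and expressed in blood cell precursors, had the smallest unadjusted p of the family and the lowest log2 difference. Its values were 6.30, 6.23 and 6.48 in Tg2576 OBs and 6.75, 6.89 and 6.74 in WT OBs. The genotypes did not overlap, but 5 of the 6 values were under the negative control line of 6.85. The log2 difference was -0.46 (SE 0.092), with an adjusted p of 0.332 in limma, and its fold of 0.728 missed the threshold of 0.7. Without Tg2576 replicate 3 it passed both thresholds, at -0.53.

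**Figure D1:**
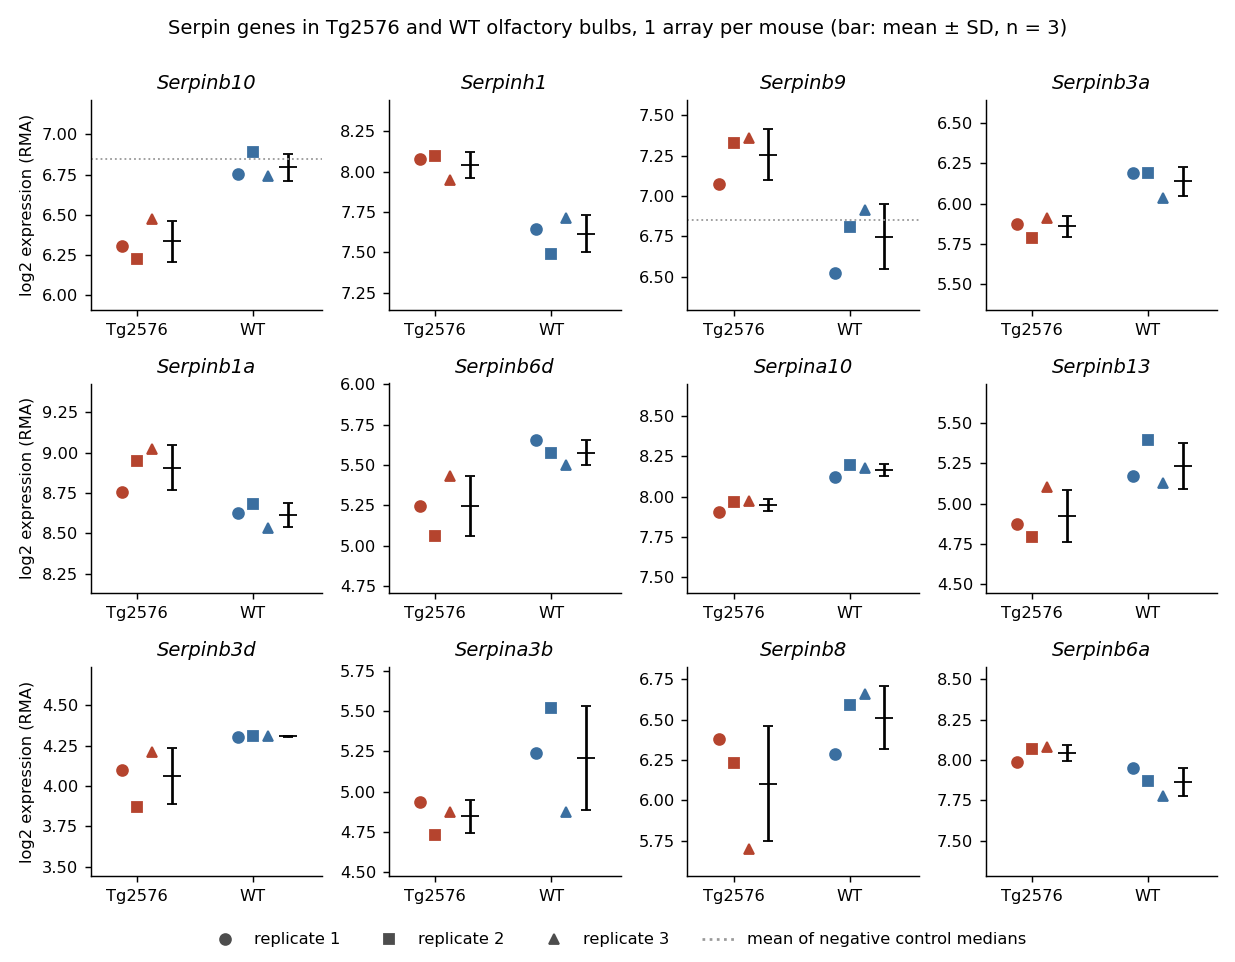
Deposited log2 values of the 12 Serpin genes with the smallest unadjusted p, with Tg2576 at the left and WT at the right of each panel, 1 point per mouse and a bar for mean ± SD. Serpinh1 and Serpinb9 sit higher in all 3 Tg2576 mice, and Serpinb10 lies lower in all 3, mostly under the dotted line of the negative controls at 6.85.

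Serpinb1a was the third member with an unadjusted p under 0.05 and a higher level in Tg2576 OBs. It inhibits neutrophil elastase and related proteases in the cytosol. Its values were 8.75, 8.95 and 9.02 in Tg2576 OBs, against 8.63, 8.68 and 8.53 in WT OBs. The groups were apart by a small gap, and the log2 difference of 0.29 (SE 0.093, adjusted p = 0.489 in limma) was under the fold threshold. Serpinb6a, a cytosolic serpin whose human counterpart inhibits cathepsin G, was at 7.99, 8.07 and 8.08 in Tg2576 OBs and at 7.95, 7.87 and 7.78 in WT OBs. It too did not overlap, with a log2 difference of 0.18 (SE 0.079, adjusted p = 0.588). The 4 members whose arrays were all higher in Tg2576 OBs were these clade B genes, Serpinb9 and Serpinh1, and all 4 had a mean level above the negative control line.

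Among the members that were lower with an unadjusted p under 0.05, 7 of 8 had a mean level at or under that line. Serpina10 was the exception. It encodes the protein Z-dependent inhibitor of clotting factor Xa, and it was at 7.91, 7.97 and 7.97 in Tg2576 OBs and at 8.12, 8.20 and 8.18 in WT OBs. These are tight groups with no overlap, and the log2 difference was -0.22 (SE 0.072, adjusted p = 0.503 in limma). It held between -0.24 and -0.19 with any 1 array left out.

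The others of these were clade B genes and Serpina3b. Serpinb3a, a mouse relative of the human squamous cell carcinoma antigens, was at 5.88, 5.79 and 5.91 in Tg2576 OBs and at 6.19, 6.19 and 6.04 in WT OBs, a difference of -0.28 (SE 0.081). Its neighbour Serpinb3d was at 4.10, 3.87 and 4.21 in Tg2576 OBs, against 4.31 on each WT array, a difference of -0.25 (SE 0.098) that was -0.15 without Tg2576 replicate 2. Both were without overlap, yet at levels far below the negative control line. Serpinb13, whose human counterpart inhibits cathepsins K and L, was at 4.87, 4.79 and 5.11 in Tg2576 OBs and at 5.17, 5.40 and 5.13 in WT OBs, and its highest Tg2576 value was just under its lowest WT value. Serpinb6d was at 5.25, 5.06 and 5.43 in Tg2576 OBs and at 5.65, 5.58 and 5.50 in WT OBs, also apart. Their log2 differences were -0.31 (SE 0.11) for Serpinb13 and -0.33 (SE 0.11) for Serpinb6d.

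For the remaining pair the genotypes overlapped. Serpinb8, whose human counterpart inhibits furin, was at 6.38, 6.23 and 5.70 in Tg2576 OBs and at 6.29, 6.59 and 6.66 in WT OBs. The spread between the Tg2576 mice was wide, and the difference of -0.41 (SE 0.18) ran from -0.55 without Tg2576 replicate 1 to -0.21 without Tg2576 replicate 3. Serpina3b was at 4.93, 4.73 and 4.87 in Tg2576 OBs and at 5.24, 5.52 and 4.88 in WT OBs. WT replicate 3 lay among the Tg2576 values, and the difference was -0.36 (SE 0.15) with it and -0.53, past both thresholds, without it. Without WT replicate 2, its highest array, the difference was -0.21.

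**Figure D2:**
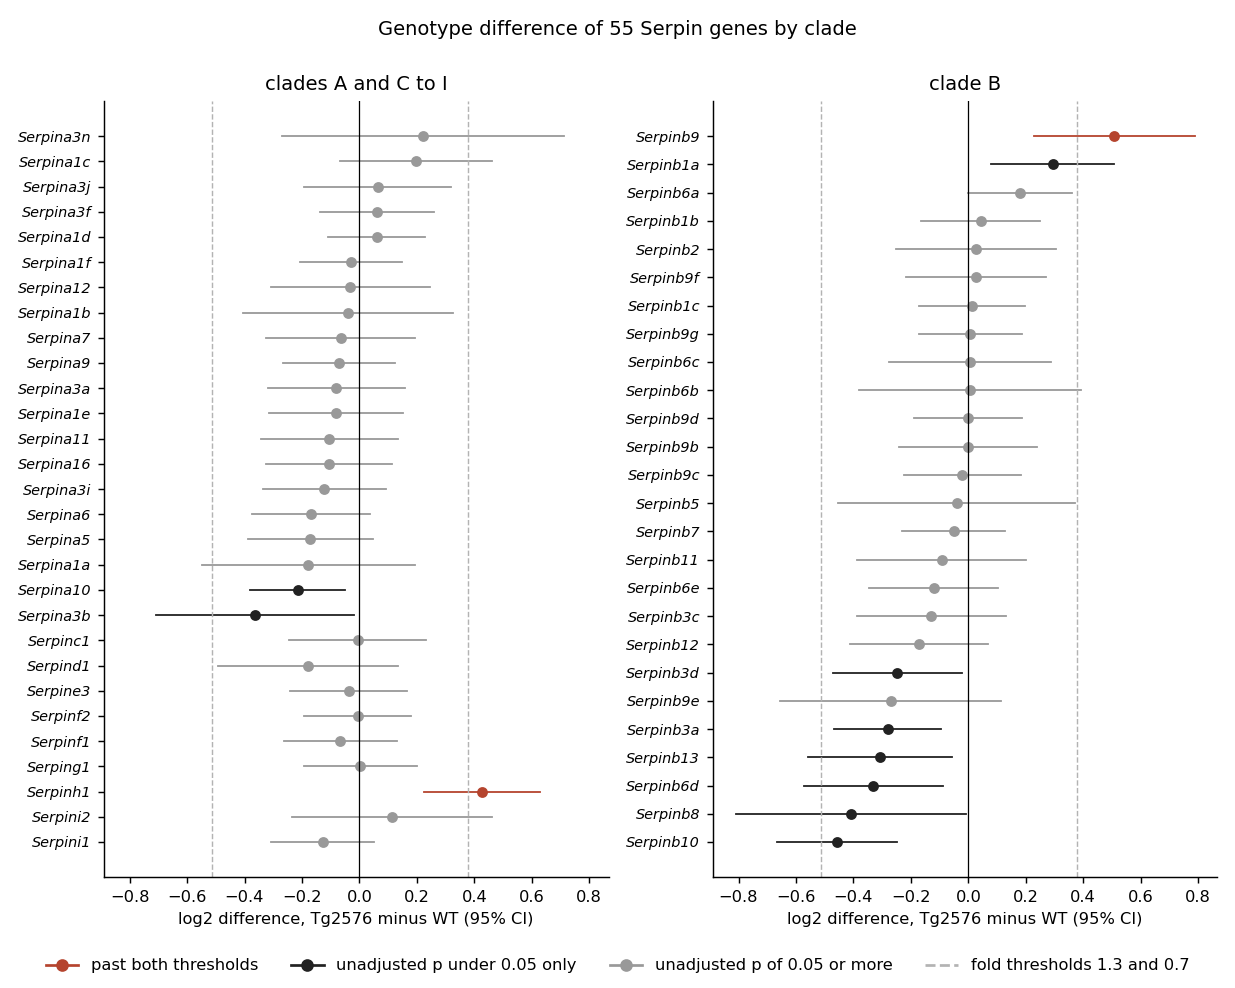
Log2 difference of each of the 55 Serpin genes, Tg2576 minus WT, with its 95% confidence interval, for clades A and C to I at the left and clade B at the right. Serpinb9 and Serpinh1 are past both thresholds at 0.51 and 0.43, and Serpinb10 at -0.46 falls just short of the dashed line for a fold of 0.7.

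Serpins with known roles in the brain did not pass the thresholds. Serpini1, the neuronal inhibitor of tissue plasminogen activator, was at 11.73, 11.64 and 11.55 in Tg2576 OBs and at 11.78, 11.72 and 11.80 in WT OBs. The groups overlapped only at WT replicate 2, and the difference was -0.13, with a 95% confidence interval from -0.31 to 0.052. Serpina3n was at 8.82, 8.45 and 9.12 in Tg2576 OBs and at 8.56, 8.97 and 8.19 in WT OBs, so that mice of 1 genotype differed by more than the genotypes did. Its difference was 0.22 (SE 0.21), with an interval from -0.27 to 0.71, and it ran from 0.032 without WT replicate 3 to 0.42 without WT replicate 2. Serpinf1, the pigment epithelium-derived factor, was at 10.25 ± 0.071 in Tg2576 OBs and at 10.31 ± 0.11 in WT OBs (SD, n = 3 each). Serping1, the C1 inhibitor of complement, was at 9.20 ± 0.0057 in Tg2576 OBs and at 9.19 ± 0.13 in WT OBs, and the 3 Tg2576 mice were nearly equal.

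Serpind1, Serpinf2 and Serpinc1, inhibitors of clotting and fibrinolysis, did not pass the thresholds either, nor did Serpina1a and Serpini2. Serpind1, the heparin cofactor that inhibits thrombin, was at 9.02, 8.79 and 8.48 in Tg2576 OBs and at 8.95, 9.07 and 8.82 in WT OBs. These values overlapped, with a difference of -0.18 and an interval from -0.49 to 0.13. It was -0.31 without Tg2576 replicate 1, -0.12 without WT replicate 2 and -0.037 without Tg2576 replicate 3. Serpinf2, the inhibitor of plasmin, was at 7.80 in both genotypes, with an interval of the difference from -0.19 to 0.18. Serpinc1, antithrombin, was at 6.21 ± 0.095 in Tg2576 OBs and at 6.22 ± 0.17 in WT OBs, under the negative control line. Serpina1a, an α1-antitrypsin gene, was at 6.73, 6.96 and 7.05 in Tg2576 OBs and at 6.88, 7.47 and 6.92 in WT OBs. WT replicate 2 stood above its other arrays, and the difference was -0.18 with that array and 0.013 without it. Serpini2 was at 5.26 ± 0.34 in Tg2576 OBs and at 5.15 ± 0.020 in WT OBs, with a difference of 0.11 that was -0.078 without Tg2576 replicate 1 and 0.25 without Tg2576 replicate 2.

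Serpine2, which encodes protease nexin-1, an inhibitor of thrombin and plasminogen activators made by glia and neurons, had no name in the platform table. Its probe set was named through a supplementary list of the study that holds the rows of smallest p, so its naming is not independent of its difference and it was not counted among the members. It was at 10.51, 10.39 and 10.38 in Tg2576 OBs and at 10.21, 10.16 and 10.14 in WT OBs. All Tg2576 arrays were higher, the log2 difference was 0.26 (SE 0.076, adjusted p = 0.457 in limma), and its fold of 1.20 was under the threshold.

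Across the family 37 of 55 members (67.3%) had a difference below 0, against 51.6% of all probe sets. The median difference was -0.041 for the Serpin genes and -0.0049 for all probe sets. It stayed below 0 under each normalization tried, but was -0.014 after a further quantile normalization and -0.0089 after cyclic loess. WT replicate 2 was the highest of the 6 arrays for 26 of the 55 members. Without it 29 of 55 members were below 0 and the median was -0.015, and without WT replicate 1 these were 42 of 55 and -0.074. The members share the same 6 arrays, so these counts are not independent observations.

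The members were also split by level. A mean level at or under the negative control line was found for 31 members, and 22 of these (71.0%) were below 0, and at an unadjusted p under 0.05 7 were lower and 0 higher. Of all probe sets at such levels 59.7% were below 0, with a median of -0.033, and at that p 6.92% were lower and 3.26% higher. Medians of the negative control probe sets themselves were 6.81, 6.84 and 6.78 in Tg2576 OBs and 6.90, 6.84 and 6.91 in WT OBs, the highest Tg2576 and the lowest WT value both being 6.84. The part of this offset in the members of low signal was not tested. Of the 24 members above the line 15 (62.5%) were below 0, with a median of -0.073, against 48.6% and a median of 0.0035 for all probe sets above it. Both genes that rose were among these 24.

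**Figure D3:**
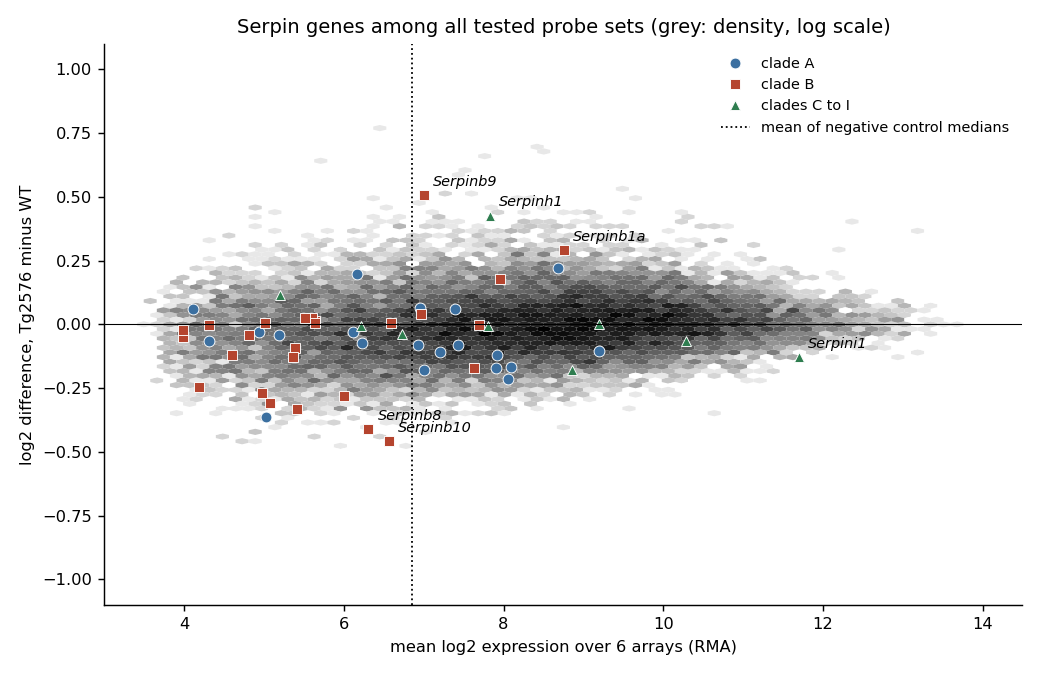
Log2 difference, Tg2576 minus WT, against the mean log2 expression over the 6 arrays for the 55 Serpin genes, over the density of all tested probe sets in grey (a few probe sets lie beyond the axis). Many clade B genes lie left of the dotted negative control line at 6.85 and below 0, whereas Serpinb9 and Serpinh1 lie to its right at 0.51 and 0.43.

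By clade, 15 of 20 clade A genes were below 0, with a median of -0.076, and 16 of 26 clade B genes, with a median of -0.031. None of the clade A genes passed the thresholds, and Serpina10 and Serpina3b were lower at an unadjusted p under 0.05. Clade A covers the α1-antitrypsins, the Serpina3 genes and the carriers of cortisol and thyroxine. Serpina6, the corticosteroid-binding globulin, was at 8.09, 8.07 and 7.85 in Tg2576 OBs and at 8.19, 8.23 and 8.11 in WT OBs. Its values did not overlap, with a difference of -0.17 (SE 0.090). Serpina7, the thyroxine-binding globulin on chromosome X, was at 4.28 ± 0.15 in Tg2576 OBs and at 4.34 ± 0.17 in WT OBs. Serpina5, the protein C inhibitor, had a difference of -0.17 with overlapping groups. The clade A median was -0.014 without WT replicate 2, with 11 of 20 genes below 0, and -0.13 without WT replicate 3, with 15 of 20.

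The clade B genes lie in separate clusters on chromosomes 1 and 13, and these were described apart. On chromosome 1, 10 of 11 genes were below 0, with a median of -0.17, and 5 were lower at an unadjusted p under 0.05, where 6.92% of all probe sets of low signal were. These were Serpinb13, Serpinb3a and Serpinb3d, which follow each other, and Serpinb10 and Serpinb8, which are neighbours at the end of the cluster. Serpinb2, an inhibitor of urokinase made by macrophages, was the gene above 0, at 5.50, 5.51 and 5.82 in Tg2576 OBs and 5.41, 5.77 and 5.57 in WT OBs, with full overlap. Of these 11 genes 10 had a mean level at or under the negative control line, and Serpinb12 was the exception, at 7.70, 7.57 and 7.36 in Tg2576 OBs and 7.59, 7.78 and 7.77 in WT OBs. The number of genes below 0 was 9 or 10 of 11 in each fit that tested all of them, but the number with an unadjusted p under 0.05 was 3 after a further quantile or loess normalization and 3 without Tg2576 replicate 1, Tg2576 replicate 2 or WT replicate 3, and it was 2 without WT replicate 2.

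On chromosome 13, 9 of 15 clade B genes were above 0, with a median of 0.0055. The median was -0.0073 after median centring, which left 6 of 15 above 0, and it ran from -0.033 without WT replicate 1 to 0.062 without WT replicate 2, so this cluster had no settled direction. Serpinb9 rose, and its 6 relatives Serpinb9b to Serpinb9g had differences between -0.27 and 0.025. Serpinb9b, at 7.69 ± 0.14 in Tg2576 OBs and 7.69 ± 0.15 in WT OBs, was the other of these genes above the negative control line. The Serpinb1 genes, 3 in number, were all above 0, with Serpinb1b at 0.042 and Serpinb1c at 0.014 beside Serpinb1a at 0.29. Of the 10 genes of this cluster at or under the negative control line 5 were below 0, against 9 of 10 such genes on chromosome 1. Both clusters and the clade A cluster on chromosome 12 hold gene copies of near-identical sequence, and how far the probes of the Serpina1, Serpina3, Serpinb3, Serpinb6 and Serpinb9 genes tell the copies apart is uncertain.

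**Figure D4:**
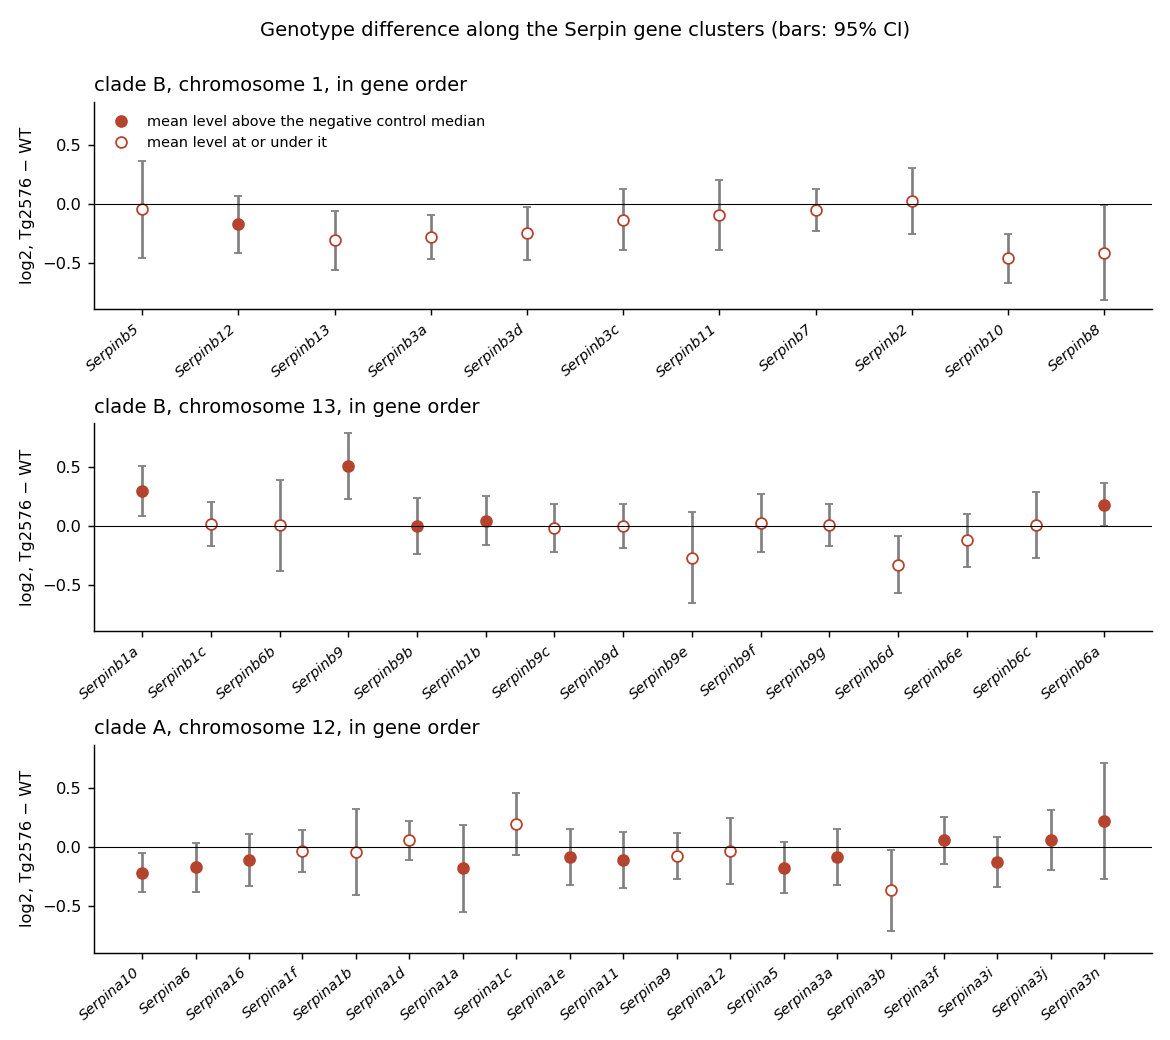
Log2 difference, Tg2576 minus WT, with 95% confidence intervals, of the clade B genes on chromosomes 1 and 13 and the clade A genes on chromosome 12, in gene order, with open points for genes at or under the negative control line. On chromosome 1 the points lie below 0 for 10 of 11 genes and nearly all are open, and on chromosome 13 Serpinb9 stands at 0.51 among neighbours near 0.

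Windows at the start sites were matched for 49 of the 55 genes, as 58 windows among 32851 in the RefSeq table. The interferon core was in 17.2% of the Serpin windows, against 8.56% of all windows, and its 8 genes included Serpinb9, Serpinb10 and Serpinb6a. The loose AP-1 pattern was in 20.7% of the Serpin windows and 7.81% of all, and in windows of 7 of the 10 chromosome 1 clade B genes that had a window. Of the genes of that cluster that were lower at an unadjusted p under 0.05, Serpinb10 and Serpinb8 had the pattern. Serpinb3a and Serpinb3d did not, and Serpinb13 had no window. The 11 Serpin genes with this AP-1 pattern included the gene copies Serpina1a, Serpina1b, Serpina1c and Serpina1d. A TATA box (TATAAA) was in 27.6% of Serpin windows and 13.6% of all, and a GC box in 12.1% and 35.7%. The Serpin windows had a median of 3 CG dinucleotides and all windows a median of 7, so that the Serpinh1 window with its 16 stood well above both. Matches are runs of letters only, their motifs were picked after these windows had been looked at, and whether any factor binds there was not measured.

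Genes that work with serpins were read from 6 lists. The proteases that serpins inhibit showed no member past the thresholds, with 0 of 24 serine proteases and 0 of 7 cathepsins and other cysteine proteases, and 10 and 5 of them above 0. F11, clotting factor XI, was at 4.69, 4.82 and 4.70 in Tg2576 OBs and at 5.24, 5.17 and 4.96 in WT OBs, a difference of -0.39 at low signal that missed the fold threshold. Klk6, a kallikrein of oligodendrocytes, was at 7.65, 8.20 and 8.39 in Tg2576 OBs and at 7.89, 7.44 and 7.38 in WT OBs, overlapping, with a difference of 0.51 (SE 0.20). Ctsh, a lysosomal cathepsin, had a difference of 0.26, and Casp1, the inflammasome caspase, of 0.14.

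Of the receptors and cofactors that bind serpins or their complexes 2 of 11 rose and 0 fell. These were the small proteoglycans of the matrix Bgn, at 10.50, 10.55 and 10.43 in Tg2576 OBs and 10.23, 10.11 and 9.83 in WT OBs, and Dcn, at 11.29, 11.37 and 11.15 in Tg2576 OBs and 10.87, 10.93 and 10.38 in WT OBs. Both were without overlap, and Dcn is also on the list of meningeal fibroblast markers. Over all probe sets 0.698% rose and 0.0991% fell. The list of receptors and cofactors was chosen with earlier results of these data known, and Bgn is among the genes of the study's APP network. Its count is therefore not independent support. Vtn, the adhesive matrix protein vitronectin, had a difference of 0.32 (SE 0.10, no overlap), and Plaur, the urokinase receptor, of -0.28 (SE 0.10, no overlap). Of 15 other protease inhibitors 0 passed the thresholds, with A2m, the broad inhibitor α2-macroglobulin, at 0.33 and Ambp, the bikunin precursor, at -0.24.

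Partners of Serpinh1 in collagen folding did not pass with it. None of 10 was past the thresholds, 6 were above 0, and the list averaged 9.33 to 9.39 in Tg2576 OBs and 9.24 to 9.30 in WT OBs. Crtap, a part of the prolyl 3-hydroxylase complex, was at 8.61, 8.84 and 8.65 in Tg2576 OBs and at 8.58, 8.47 and 8.02 in WT OBs, a difference of 0.34 (SE 0.14), and P4hb, protein disulfide isomerase, had a difference of 0.13. For Serpina3n the list of acute phase and reactive astrocyte genes served. None of its 12 genes passed the thresholds, 6 were above 0, and Vim (0.27) and S1pr3 (0.26) had the smallest p.

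**Figure D5:**
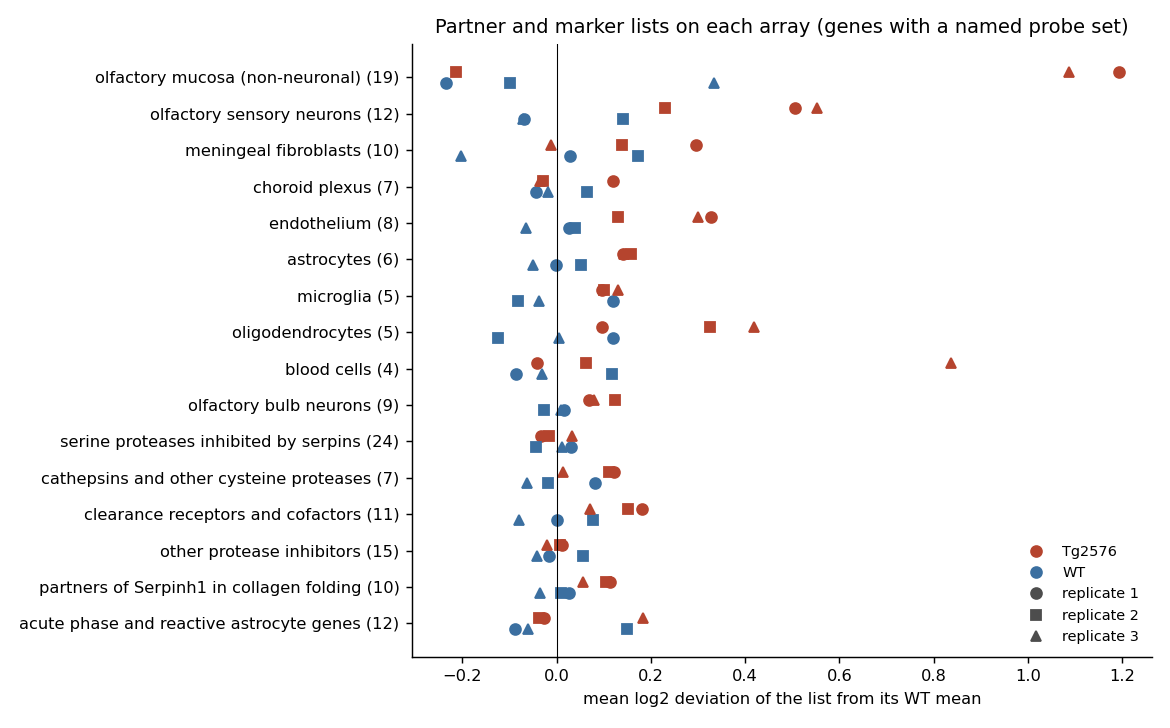
Mean log2 deviation of each fixed list from its WT mean on each array, with Tg2576 in red above WT in blue and the number of measured genes in parentheses. The mucosa list is at 1.19 and 1.09 in Tg2576 replicates 1 and 3 and at no more than 0.33 on the other arrays, and the list of Serpinh1 partners is at 0.055 to 0.11 in Tg2576.

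Facts of the whole series that touch these values are as follows. Array medians lay between 8.18 and 8.22. The mouse gene App was at 12.34 ± 0.026 in Tg2576 OBs and at 12.36 ± 0.073 in WT OBs, and since no source used here says whether its probes bind RNA of the transgene, it could not check the labels. Markers of the non-neuronal olfactory mucosa deviated by 1.19, -0.21 and 1.09 in Tg2576 OBs and by -0.24, -0.099 and 0.33 in WT OBs, with 15 of 19 higher and Trp63 past the thresholds. Trp63 did not follow this list across the Tg2576 arrays, being at 7.53, 8.09 and 7.65 and so highest in replicate 2. Krt14 and Krt15 of the same list were lower without overlap, at -0.18 each. Astrocyte markers deviated by 0.14 to 0.16 in Tg2576 OBs and by -0.051 to 0.053 in WT OBs, with 4 of 6 higher and Gfap past the thresholds. Aldh1l1, at -0.077, and Gjb6, at -0.16, were the astrocyte markers below 0. One gene each passed among oligodendrocyte markers (Cldn11, 1 of 5) and markers of OB neurons (Tbx21, 1 of 9), and 0 among microglia (5), choroid plexus (7) and blood cell markers (4), the last being highest in Tg2576 replicate 3, at 0.84. All 9 markers of OB neurons were above the negative control line on average. These lists too were chosen with earlier results of these data known, and 0.698% of all probe sets passed the thresholds as higher.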

How the data were processed

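RNA of the OB was measured on Affymetrix mouse Clarion S arrays, 1 per mouse, in 3 Tg2576 and 3 WT females. The authors deposited log2 values per probe set, summarised and normalized by RMA, whose version no source used here gives. RMA aligns arrays by quantiles. Of 28815 probe sets, 63 spike-in, 5222 negative and 1324 positive controls were left out. Symbols came from the platform table, all 55 gene IDs gave the same current symbol, and the highest-mean probe set per gene was to be used. Gene order and promoter windows came from RefSeq (GRCm38.p6), since the files name no build.

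The genotypes were fitted in R 4.3.3 with limma 3.58.1 over all 22206 probe sets (genotype as the only term, moderated variances, Benjamini-Hochberg adjustment). The p threshold of 0.01 is that of the study's methods, and the folds of 1.3 and 0.7 are from the name of a supplementary sheet. The study's methods give separate mice for each array, and an exact test of 3 against 3 cannot go below 0.1, so single genes were tested only in this model. The negative control line is the mean over arrays of the median of the negative control probe sets. Named genes were Serpin genes past the thresholds in the fit or an alternative, those with an unadjusted p under 0.05, a fixed list of well-known Serpin genes with App (22 in all), and in each of 16 lists (6 of serpin partners, 10 of cell type markers) genes past the thresholds or of the smallest p. Other members were named after their values were seen. Members, lists and thresholds were chosen with earlier results of these data known. Listed genes with no named probe set were not analysed here. Motifs were searched on both strands, and 4 of 8 patterns first looked at were kept, the interferon core in a shortened form. The code of the fit was checked on data simulated from the model's own assumptions, which cannot test those assumptions on these arrays. Alternatives were array weights, robust limma-trend, median centring, further quantile or loess normalization, filters on low values, probe sets with 1 symbol, a replicate block, each array left out, and other thresholds. Promoters and figures used Python 3.11.15 (matplotlib 3.10.9, pandas 2.3.3, numpy 2.4.6).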

Additional observations from a re-analysis of the deposited data

How the results depend on the processing

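Serpinh1 and Serpinb9 were the members past the thresholds under limma-trend, array weights, median centring, quantile and loess normalization, both filters on low values, probe sets with 1 symbol and the replicate block. Equal folds in both directions added Serpinb10, as lower. With an unadjusted p under 0.01 and no fold threshold 4 members passed (468 of all probe sets), with an unadjusted p under 0.05 11 (1896), and with an adjusted p under 0.05 in limma 0 (0). With single arrays left out the count ran from 1 to 3, Serpinb9 being lost without Tg2576 replicate 2 or 3, Serpinh1 without WT replicate 2, and Serpinb10 and Serpina3b gained as lower without Tg2576 replicate 3 and WT replicate 3. Same-numbered mice did not deviate together (r of 0.036, -0.038 and -0.043), and the labels give no shared litter or day. The samples were therefore treated as unpaired, although with 3 arrays per genotype these r cannot exclude a pairing. The replicate block gave 2 Serpin genes and 225 probe sets past the thresholds, against 177 without it. No named member that passed anywhere reversed its sign. Some differences near 0 did. Serping1 was -0.0095 after median centring, -0.014 after quantile and -0.0089 after loess normalization, Serpinc1 was 0.018 after quantile and 0.027 after loess normalization, and Serpinf2 was 0.0045 after loess normalization. With single arrays left out, differences of both signs were found for Serping1 (-0.042 to 0.077), Serpinc1 (-0.088 to 0.085), Serpinf2 (-0.062 to 0.027), Serpini2 (-0.078 to 0.25), Serpina1a (-0.28 to 0.013) and App (-0.065 to 0.0043). The causes were not tested. Signal is a limit too, since 31 of 55 members lay at or under the negative control line.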
